A study of Mus musculus with 27 samples.

Results

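The genes described here encode the nuclear lamina and its links to chromatin and to the cytoskeleton in the mouse retina as rods mature. They are the lamins Lmna, Lmnb1 and Lmnb2, the inner membrane proteins Lbr and Emd, and the SUN and nesprin genes Sun1, Sun2, Syne1 and Syne2. Members were taken by gene symbol from the deposited CPM table, where CPM is a gene's read number relative to all reads of its library, and in which each of the 9 has 1 entry among 38168 features. All 9 passed the filter on low values. The libraries came from whole retina and not from rods or rod nuclei, so no level below belongs to a single cell type.

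Retinal RNA of wild type C57BL/6J mice, with no treatment named, was sequenced at embryonic day 14 (E14, n = 3), E17 (n = 3), postnatal day 1 (P1, n = 4), P6 (n = 3), P15 (n = 4), P28 (n = 4) and P60 (n = 6). Tissue was taken in the light phase, and libraries held pooled animals except that 4 of the 6 P60 libraries came from single mice, which the sources used here do not identify by replicate. Embryos and P1 pups were of mixed sex and later animals were male, so sex and age cannot be told apart between the early and the later groups. Recovered read totals ran from 7076646 to 11330762 per library, with a median of 7968785.

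The lamina is a meshwork of lamin filaments under the inner nuclear membrane. In most mammalian cells heterochromatin is held against it by the lamin B receptor, Lbr, and by an arrangement that needs the A-type lamins, lamin A and lamin C, both made from Lmna. Rods of nocturnal mammals are known for an inverted nucleus, in which heterochromatin lies in the centre and euchromatin at the rim, and mature mouse rods are described as lacking both tethers. SUN proteins span the inner membrane and hold nesprins of the outer membrane, and together they form the LINC complex, which positions nuclei in the elongated cells of the retina.

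Across the 7 ages 5 of the 9 genes fell from embryonic to mature retina and 4 rose. Lmnb1, Lbr, Lmnb2, Emd and Sun2 passed the test at no step up to P1 and then fell, with every P6 library below every P1 library. Syne1 rose from E14 to E17, from P1 to P6 and from P6 to P15, to an 18.3-fold higher mean in mature retina, and Lmna, Syne2 and Sun1 rose by less. Mature is the mean of the P15, P28 and P60 groups and embryonic the mean of E14 and E17, in a limma fit of log2(CPM + 1) over all libraries with age as the factor, called at a Benjamini-Hochberg adjusted p under 0.05. All 9 genes also passed limma's F test over the 7 ages, as did 83.0% of the 31760 features tested. In the comparison of mature with embryonic retina 35.0% of all features were called higher and 40.4% lower, so 9 called members of 9 stands against a background in which most features moved.

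**Figure D1:**
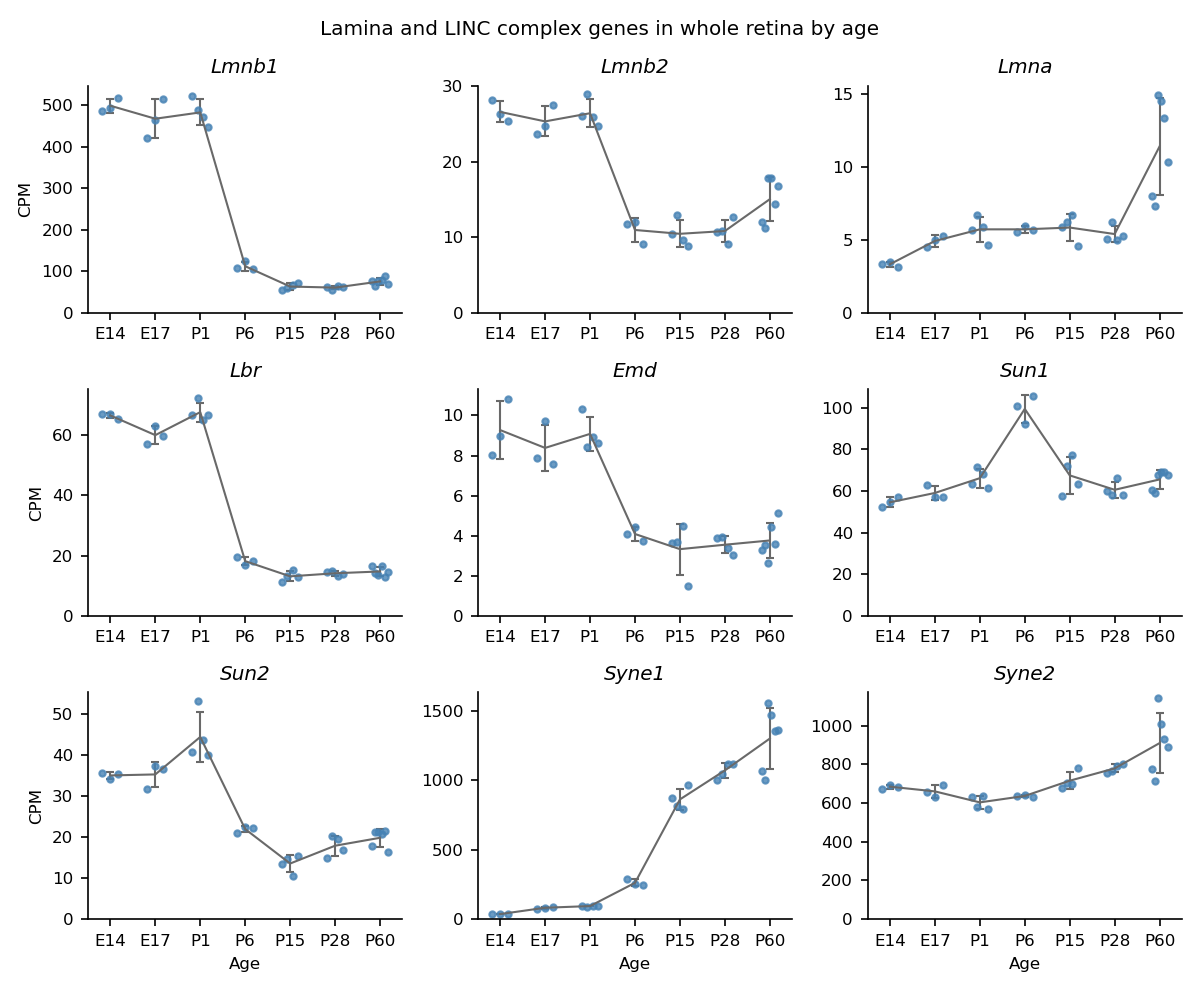
CPM (vertical axes, linear from 0, a scale for each gene) of the 9 genes at the 7 ages. Points are libraries, and the line and bars give the mean ± SD of each age (n = 3 to 6). Lmnb1, Lmnb2, Lbr, Emd and Sun2 are lower in each P6 library than in each P1 library, Sun1 peaks at P6 (92.1 to 105 CPM), and Syne1 reaches 1001 to 1556 CPM at P60.

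The P60 libraries were less alike than those of other ages. Pearson's r between P60 libraries over all features ranged from 0.940 to 0.983, against 0.977 or more within each of the other ages. With P15 and P28 alone as the mature group, all 9 members kept their calls and directions against embryonic retina, at log2 differences of 4.12 for Syne1, -2.95 for Lmnb1, -2.14 for Lbr, -1.22 for Lmnb2, -1.17 for Emd, -1.13 for Sun2 and 0.16 for Sun1, and those of Lmna and Syne2 are given with these genes. Lists of cell type markers changed with age as well, with 7 of 7 rod markers higher and 6 of 6 proliferation markers lower in mature than in embryonic retina. The summed level of the rod markers (Nrl, Nr2e3, Gnat1, Pde6a, Sag, Cnga1 and Rom1) was 15.1 to 19.7 CPM at E14 and 10723 to 12572 CPM at P60. That of the proliferation markers (Mki67, Top2a, Ccnb1, Cdk1, Pcna and Mcm2) was 3237 to 3332 CPM at E14 and 13.6 to 23.8 CPM at P60. In whole tissue, fewer cells of a type and less RNA per cell cannot be told apart.

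Since 5 members fell together between P1 and P6, their upstream sequences are shown, except that of Lmnb1. Those of Sun1 and Syne1, which rose at the same step, are shown beside them. All are the 120 bases before the annotated start on the gene's strand, from RefSeq on GRCm38.p6. Starts of 8 of the 9 members were searched. Lmnb1 was left out of this search, so its motifs are not known here. Capitals mark matches on either strand to the CCAAT box (CCAAT), to the cell cycle homology region (CHR, searched as TTTGAA) or to an E2F site, in the form TTCCCGC, in the form TTGGCGC, in the form TTCGCGC or in the form TTGCCGC. On the opposite strand the CCAAT box reads ATTGG, while the CHR letters read TTCAAA there and the E2F form found here reads GCGCCAA.
Lbr, chr1:181842402-181842521, minus strand: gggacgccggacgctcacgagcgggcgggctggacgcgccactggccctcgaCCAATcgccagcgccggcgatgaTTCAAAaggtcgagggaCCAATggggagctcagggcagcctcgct
Sun2, chr15:79742537-79742656, minus strand: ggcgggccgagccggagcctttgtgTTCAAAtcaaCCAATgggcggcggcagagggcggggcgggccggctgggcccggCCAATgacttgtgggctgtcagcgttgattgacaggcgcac
Emd, chrX:74254567-74254686, plus strand: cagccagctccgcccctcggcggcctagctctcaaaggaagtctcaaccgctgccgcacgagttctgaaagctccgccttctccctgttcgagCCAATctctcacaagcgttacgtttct
Lmnb2, chr10:80918246-80918365, minus strand: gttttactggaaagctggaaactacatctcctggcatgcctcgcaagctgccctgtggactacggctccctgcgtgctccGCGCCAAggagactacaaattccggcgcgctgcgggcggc
Sun1, chr5:139200517-139200636, plus strand: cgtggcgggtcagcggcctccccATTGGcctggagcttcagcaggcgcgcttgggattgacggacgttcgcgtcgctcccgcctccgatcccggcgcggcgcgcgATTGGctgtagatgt
Syne1, chr10:5550693-5550812, minus strand: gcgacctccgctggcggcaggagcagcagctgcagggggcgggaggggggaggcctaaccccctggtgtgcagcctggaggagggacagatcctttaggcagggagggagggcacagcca

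Lbr and Sun2 each held 2 CCAAT boxes and 1 CHR match, Emd 1 CCAAT box, Lmnb2 1 E2F match and Sun1 2 CCAAT boxes. These counts are for the starts shown. In the 250 bases before the second annotated start of each gene, Lmnb2 held none of these motifs and Sun1 held 1 CCAAT box. None of these motifs was found in the 250 bases before any of the 3 annotated Syne1 starts or before the Syne2 start, and of 2 annotated Lmna starts 1 had a single CCAAT box. Among 32851 promoters of the same length, 33.8% held a CCAAT box, 16.0% a CHR match, 7.89% an E2F match and 5.55% both a CCAAT box and a CHR match. A CRX site, the motif of a photoreceptor homeodomain factor (TAATCC), was found before the second Sun1 start and no other member start searched, and in 6.25% of promoters. A match is a description of letters and not a binding site.

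Among the lamins, the B-type genes fell and Lmna rose. Lmnb1 (Gene ID 16906, chr18:56707813-56753424, plus strand, GRCm38), a B-type lamin that stays anchored in the membrane by its lipid tail, stood at 486, 494 and 518 CPM at E14, at 422, 465 and 516 at E17 and at 523, 489, 471 and 449 at P1. It was at 107, 124 and 105 CPM in the P6 libraries and at 54.1, 58.9, 66.3 and 72.7 at P15. The P28 libraries had 62.5, 54.2, 63.3 and 61.5 CPM, and the 6 P60 libraries ran from 65.5 over a median of 75.6 to 88.5 CPM. The embryonic and P1 libraries overlapped one another, and all of them lay above every later library. The mean was 484 CPM in embryonic and 66.2 CPM in mature retina, 7.30-fold lower, a log2 difference of -2.86 (SE 0.06, limma adjusted p = 1.3e-27).

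Lmnb2 (Gene ID 16907, chr10:80901203-80918245, minus strand), the second B-type lamin gene, ran from 23.7 to 29.0 CPM in the 10 libraries up to P1 and from 8.80 to 17.8 CPM in the 17 later ones. It was at 11.7, 12.0 and 9.10 CPM at P6, after 26.0, 29.0, 25.9 and 24.7 at P1, with no overlap between these ages. The mean was 26.0 CPM in embryonic and 12.1 CPM in mature retina, a log2 difference of -1.07 (SE 0.10, adjusted p = 1.8e-11).

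Lmna (Gene ID 16905, chr3:88480147-88509956, minus strand) had the lowest level of the lamins per length at each age. It stood at 3.30, 3.48 and 3.16 CPM at E14, at 4.50, 4.94 and 5.28 at E17 and at 5.64, 6.68, 5.88 and 4.61 at P1. The P6 libraries had 5.51, 5.95 and 5.65 CPM, the P15 libraries 5.89, 6.19, 6.69 and 4.54, and the P28 libraries 5.06, 6.18, 5.01 and 5.28. From E17 to P28 the groups overlapped in their order of level. At P60 the 6 libraries ran from 7.32 over a median of 11.8 to 14.9 CPM, above every library of any other age. Mature exceeded embryonic retina by 0.67 on the log2 scale (SE 0.12, adjusted p = 1.6e-05), from a mean of 4.11 to 7.53 CPM, and the libraries of the 2 groups overlapped. With P15 and P28 alone as the mature group the difference was 0.38 (adjusted p = 0.0027). The gene held 30 to 131 reads per library, the second smallest number among the members, and the entry cannot separate lamin A from lamin C.

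Per kilobase of annotated exon, Lmnb1 held most of the lamin signal at all 7 ages. Its share of the summed CPM per kilobase of the 3 lamins was 96.1% ± 0.30 (SD, n = 3) at E14, 91.5% ± 0.64 (n = 3) at P6 and 82.4% ± 2.93 (n = 6) at P60. The Lmnb2 share went from 3.54% ± 0.28 at E14 to 11.3% ± 1.86 at P60. The Lmna share was 0.32% ± 0.02 at E14, 3.89% ± 0.63 at P28 and 6.24% ± 1.35 at P60. These shares depend on the exon lengths used and describe RNA of all retinal cells together.

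Of the inner membrane proteins, Lbr fell with the B-type lamins. Lbr (Gene ID 98386, chr1:181815335-181843046, minus strand) binds B-type lamins and heterochromatin proteins and also has a sterol reductase domain. It stood at 67.0, 67.0 and 65.4 CPM at E14, at 56.9, 63.1 and 59.7 at E17 and at 66.7, 72.1, 64.8 and 66.6 at P1. The P6 libraries had 19.4, 16.9 and 18.2 CPM, and those of P15 11.1, 13.3, 15.1 and 12.9. At P28 it was at 14.5, 15.02, 13.1 and 13.8 CPM, and at P60 between 12.8 and 16.7 with a median of 14.3. All libraries from P6 on lay far below all earlier ones, and P15, P28 and P60 overlapped one another while P6 lay above them. Mature retina was 4.52-fold lower than embryonic retina, at 14.0 against 63.2 CPM, a log2 difference of -2.10 (SE 0.07, adjusted p = 5.5e-23). Lbr remained detected at 83 or more reads in every library. It overlaps Dnah14 on the opposite strand, and Syne1, Sun1 and Sun2 also overlap opposite-strand features. The sources used here do not say whether counting used the strand, so reads of such neighbours cannot be told apart.

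Emd (Gene ID 13726, chrX:74254687-74261548, plus strand) encodes emerin, a LEM-domain protein that binds lamins and the chromatin protein BAF. It had 7.56 to 10.8 CPM in the 10 libraries up to P1 and 1.51 to 5.14 CPM in the 17 later ones. The P6 libraries, at 4.10, 4.43 and 3.72 CPM, lay below those of P1, at 10.3, 8.45, 8.93 and 8.64. The mean was 8.82 CPM in embryonic and 3.55 CPM in mature retina, a log2 difference of -1.13 (SE 0.13, adjusted p = 5.6e-09). With 11 to 110 reads per library it was the member with the fewest reads. The gene lies on the X chromosome, and its fall coincides with the change from mixed-sex to male libraries. The part of sex was not tested.

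The SUN genes parted at P6. Sun1 (Gene ID 77053, chr5:139200637-139249840, plus strand) stood at 52.1, 54.5 and 57.0 CPM at E14, at 63.0, 57.3 and 56.9 at E17 and at 63.3, 71.6, 68.2 and 61.6 at P1. It reached 101, 92.1 and 105 CPM at P6 and was back at 57.4, 71.9, 77.5 and 63.2 at P15. The P6 libraries lay above all others, while the neighbouring ages in the order of all other groups overlapped. At P28 it had 57.9 to 66.3 CPM and at P60 58.9 to 69.4. Mature exceeded embryonic retina by 0.18 (SE 0.06, adjusted p = 0.0094), at 64.6 against 56.8 CPM, with overlapping libraries.

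Sun2 (Gene ID 223697, chr15:79724070-79742536, minus strand) was at 35.5, 34.1 and 35.4 CPM at E14, at 31.8, 37.2 and 36.7 at E17 and at 40.7, 53.1, 43.6 and 40.0 at P1. It was at 21.1, 22.5 and 22.2 CPM at P6 and lowest at P15, with 13.5, 14.6, 10.6 and 15.4. The P28 libraries had 14.9, 20.2, 19.5 and 16.8 CPM, and those of P60 16.4 to 21.6 with a median of 20.9. P15, P28 and P60 overlapped in turn, and every library from P6 on lay below every earlier one. The log2 difference of mature from embryonic retina was -1.02 (SE 0.08, adjusted p = 1.2e-12), at 17.1 against 35.1 CPM.

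Among the nesprins, Syne1 rose most of the 9 members. Syne1 (Gene ID 64009, chr10:5020917-5551482, minus strand), whose longest products reach from the SUN proteins to actin, stood at 36.0, 34.5 and 37.5 CPM at E14, at 76.1, 79.8 and 88.9 at E17 and at 94.8, 90.3, 97.1 and 93.0 at P1. It rose to 289, 251 and 243 CPM at P6 and to 869, 817, 795 and 966 at P15. The P28 libraries had 1004, 1047, 1116 and 1116 CPM, and those of P60 ran from 1001 over a median of 1356 to 1556. Each age up to P28 lay above all earlier ages without overlap, and P28 and P60 overlapped. The log2 difference of mature from embryonic retina was 4.26 (SE 0.07, adjusted p = 1.9e-31), at 1077 against 58.8 CPM.

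Syne2 (Gene ID 319565, chr12:75818134-76110926, plus strand), the other giant nesprin gene, rose by less. It ran from 567 to 696 CPM in the libraries up to P1, from 633 to 643 at P6, from 678 to 780.5 at P15 and from 756 to 800 at P28. The P60 libraries ran from 713 over a median of 911 to 1143 CPM. The P15 libraries lay above those of P6, and the groups overlapped when ordered by level. The log2 difference of mature from embryonic retina was 0.24 (SE 0.06, adjusted p = 6.7e-04), at 802 against 673 CPM, and 0.15 without the P60 libraries. Both are long genes with many annotated transcripts, short forms among them, which a gene-level entry does not separate.

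Syne3, a further nesprin gene outside the members, rose late. It was at 0.11 to 2.26 CPM in the libraries up to P6, at 34.9 to 40.3 at P15, at 69.1 to 98.2 at P28 and at 104 to 173 at P60. Its P15 libraries exceeded those of P6 by 3.96 on the log2(CPM + 1) scale (SE 0.20, adjusted p = 3.1e-16), and 2 of the E14 libraries held fewer than 3 reads of it. In CPM per kilobase, Syne2 made up 96.4% ± 0.25 of the 3 nesprins at E14 and 37.4% ± 1.16 at P60. The share of Syne1 went from 3.35% ± 0.17 at E14 to 38.8% ± 1.10 at P15 and 35.2% ± 0.75 at P60, and that of Syne3 from 0.21% ± 0.18 to 27.3% ± 1.17. These shares, too, depend on the exon lengths used. All annotated exons of Syne1 cover 40491 bases, against 27908 in its longest transcript. For Syne2 these lengths are 26726 and 21704 bases, and for Syne3 5548 and 5263.

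Pairs of members with related roles were also compared within each library, as log2 ratios of CPM + 1, in which the added 1 weighs most for Lmna. The log2 ratio of Lmna to Lbr was -3.67 ± 0.33 (SD, n = 6) in embryonic and -0.82 ± 0.51 (n = 14) in mature retina. That of Lmnb1 to Lmnb2 went from 4.17 ± 0.08 to 2.36 ± 0.28, that of Sun2 to Sun1 from -0.68 ± 0.15 to -1.85 ± 0.34, and that of Syne2 to Syne1 from 3.61 ± 0.67 to -0.43 ± 0.12. In each of the 4 pairs no mature library overlapped an embryonic one. Each gave p = 2.58e-05 in an exact permutation test (two-sided, over 38760 arrangements of 6 and 14 libraries, the same value after Benjamini-Hochberg adjustment over the 4 pairs), which is the smallest p the permutations can give. Without the P60 libraries the differences of mature from embryonic retina were 2.52, -1.73, -1.30 and -3.97 in this order of pairs (n = 8 and 6, exact permutation adjusted p = 0.000333 each, the smallest possible). The pairs therefore changed unequally, which does not say that either gene was constant. The ratios come from the same libraries as the calls of the single genes and are no separate evidence. The permutations also treated libraries of different ages as exchangeable.

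**Figure D2:**
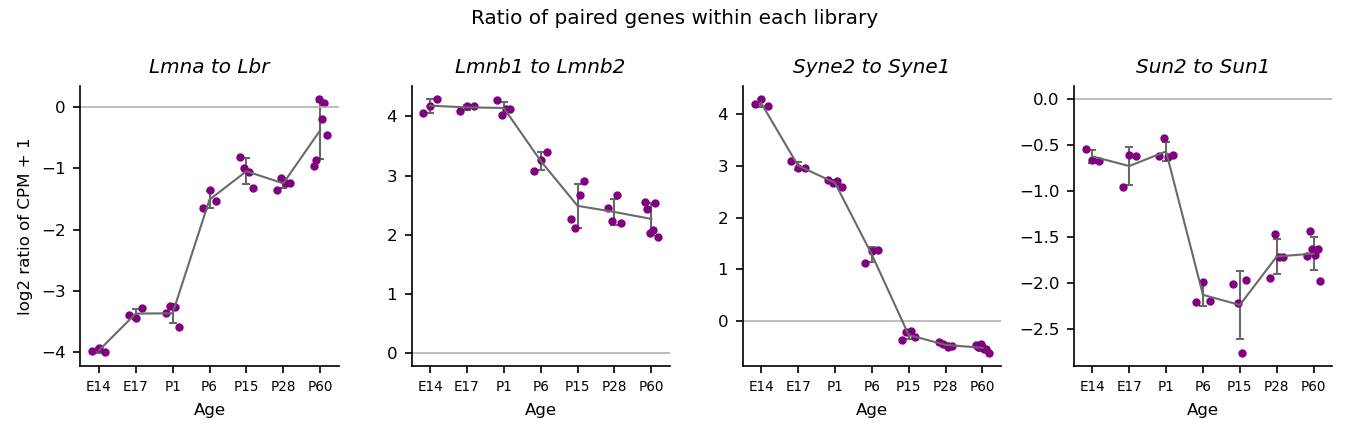
Within-library log2 ratio of CPM + 1 (vertical axes, a scale for each pair, the grey line at 0) for 4 pairs of genes at the 7 ages. Points are libraries and the line and bars give the mean ± SD. The ratio of Syne2 to Syne1 crosses 0 between P6 (1.29) and P15 (-0.27), and that of Sun2 to Sun1 drops between P1 (-0.57) and P6 (-2.13).

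The ratios changed at different times. Syne2 to Syne1 had a mean of 4.21 at E14, 3.00 at E17, 2.67 at P1, 1.29 at P6 and -0.27 at P15. Lmnb1 to Lmnb2 stayed between 4.14 and 4.18 up to P1 and was 3.25 at P6 and 2.49 at P15. Lmna to Lbr moved from -3.36 at P1 to -1.51 at P6, where Lmna itself did not pass the test, and from -1.25 at P28 to -0.38 at P60, where Lbr did not pass the test.

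Between neighbouring ages the members moved mostly from P1 to P15. From E14 to E17 Syne1 rose by 1.16 (SE 0.11, adjusted p = 2.6e-09) and no other member passed, with 7.56% of all features called higher and 3.02% lower. From E17 to P1 none of the 9 passed in limma and none by the quasi-likelihood test of edgeR, run on recovered reads, and 1 (Sun2, 0.32) had an unadjusted p under 0.05. At that step 5.77% of features were called higher and 3.43% lower.

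From P1 to P6 7 members passed, 2 higher and 5 lower, against 18.0% of features called higher and 20.4% lower. Lmnb1 changed by -2.10 (SE 0.10), Lbr by -1.84 (SE 0.11), Lmnb2 by -1.20 (SE 0.15), Emd by -0.99 (SE 0.21) and Sun2 by -0.98 (SE 0.13). Syne1 rose by 1.46 (SE 0.11) and Sun1 by 0.58 (SE 0.09). The largest adjusted p among these 7 was 2.7e-04, that of Emd, and the libraries of P1 and P6 did not overlap for any of them. At no step was overlap counted over all features. At the same step 6 of 6 proliferation markers were lower and 7 of 7 rod markers higher, their sums going from 2882 to 3260 CPM down to 85.2 to 114 CPM and from 173 to 200.3 CPM up to 2117 to 2461 CPM. Other cell type markers moved as well, with 6 of 6 bipolar, 4 of 6 vessel, 3 of 6 RPE (retinal pigment epithelium) and 4 of 4 blood markers higher, 4 of 6 ganglion cell markers lower and 2 higher, and 3 of 6 Mueller glia markers lower and 2 higher. Of the 4 lens markers tested 1 was higher and 1 lower. The bipolar sum went from 411 to 468 CPM up to 1128 to 1436 CPM. The part of these markers in the members' changes was not tested. Lmna, at 0.01 (SE 0.19), and Syne2, at 0.08 (SE 0.09), did not pass.

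From P6 to P15 Syne1 rose by 1.72 (SE 0.11) while Lmnb1 changed by -0.83 (SE 0.10), Sun2 by -0.67 (SE 0.13), Sun1 by -0.56 (SE 0.09) and Lbr by -0.45 (SE 0.11), with 14.4% of features called higher and 19.0% lower. The libraries of the 2 ages did not overlap for these 5. The proliferation sum at P15 was 10.8 to 13.9 CPM and the rod sum 8524 to 8870 CPM. From P15 to P28 none passed in limma or in edgeR, and 2 (Syne1, 0.32, and Sun2, 0.38) had an unadjusted p under 0.05, with 1.14% of features called higher and 1.58% lower. Cdk1 was at 0 in all P28 libraries.

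**Figure D3:**
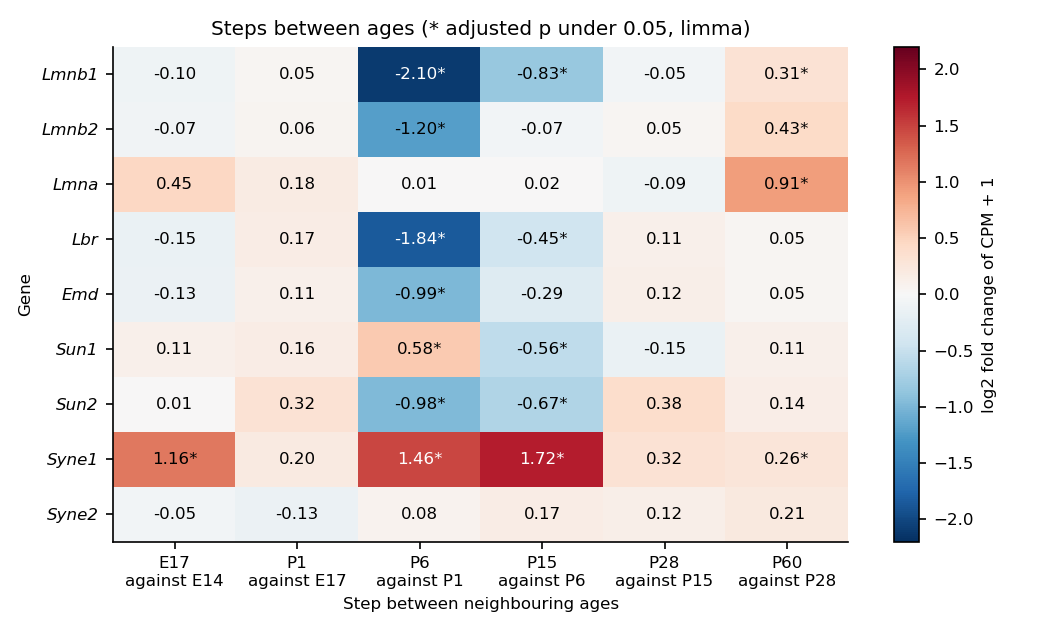
Log2 fold change of CPM + 1 (colour and number) of the 9 genes at the 6 steps between neighbouring ages. An asterisk marks a limma adjusted p under 0.05. The step from P1 to P6 has 7 marked genes and that from P6 to P15 has 5, while those from E17 to P1 and from P15 to P28 have none.

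From P28 to P60 4 members passed and all were higher, against 4.80% of features called higher and 8.11% lower. Lmna rose by 0.91 (SE 0.16, adjusted p = 0.0021), from a mean of 5.38 to 11.4 CPM, Lmnb2 by 0.43 (SE 0.13, adjusted p = 0.029), Lmnb1 by 0.31 (SE 0.08, adjusted p = 0.017) and Syne1 by 0.26 (SE 0.09, adjusted p = 0.048). The Lmna and Lmnb1 libraries of P28 and P60 did not overlap, while those of Lmnb2 and Syne1 did. In a fit of these 2 ages alone none of the 4 passed (adjusted p = 0.14 for Lmna and up to 0.26 for Syne1). The Syne1 call was also lost in most alternatives and held in 9 of 36. The main fit shares 1 estimate of the spread over all ages, while these 4 genes spread wider at P60 than at P28. The SD in CPM was 3.32 at P60 and 0.54 at P28 for Lmna, and 222 and 55.3 for Syne1. For Lmnb2 it was 2.89 and 1.49, and for Lmnb1 8.04 and 4.18. The part of this spread in the calls was not tested.

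The P60 libraries did not move as one. For Lmna, replicates 1 and 2 had 8.0 and 7.32 CPM and replicates 3 to 6 had 14.9, 14.5, 13.3 and 10.3. For Lmnb2 these values were 12.1 and 11.3 against 17.8, 17.8, 14.4 and 16.8 CPM, and for Syne1 1063 and 1001 against 1556, 1468, 1352 and 1360. Syne2 had 774 and 713 CPM in replicates 1 and 2 and 1143, 1009, 932 and 891 in the others. Replicates 1 and 2 were thus the lowest of the P60 libraries for these 4 genes, and for Lmnb2 both lay within the P28 range of 9.07 to 12.7 CPM. For Syne1 and Syne2, replicate 1 lay within the P28 range and replicate 2 below it. Lbr, at 16.7 and 14.2 against 13.6, 16.7, 12.8 and 14.5 CPM, and Sun2 did not share this order.

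At the step from P28 to P60 7 of 51 cell type markers tested passed (13.7%), against 12.9% of all features in both directions together. None of 6 Mueller glia, 6 vessel and 6 RPE markers passed in limma, nor did any of the 4 lens and 4 blood markers tested, while 1 of 7 rod and 2 of 6 proliferation markers were higher and 2 of 6 bipolar and 2 of 6 ganglion cell markers lower. The summed glia level was 1325 to 1428 CPM at P28 and 1336 to 1530 at P60, and the vessel sum 51.2 to 60.2 and 39.5 to 66.2. The rod sum, 10244 to 11640 CPM at P28, was 11550 and 10723 in P60 replicates 1 and 2 and 12572, 11207, 11976 and 11379 in replicates 3 to 6. Replicates 1 and 2 had the lowest P60 sums of 4 other lists, as they had the lowest levels of Lmna, Lmnb2, Syne1 and Syne2. The glia sum was 1349 and 1336 CPM in them against 1422 to 1530 in replicates 3 to 6, the bipolar sum 1559 and 1462 against 1666 to 1907, the ganglion cell sum 447 and 422 against 451 to 512 and the proliferation sum 13.6 and 19.0 against 20.2 to 23.8. The vessel, RPE, lens and blood sums did not share this order. The part of these levels in the P60 values was not tested.

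**Figure D4:**
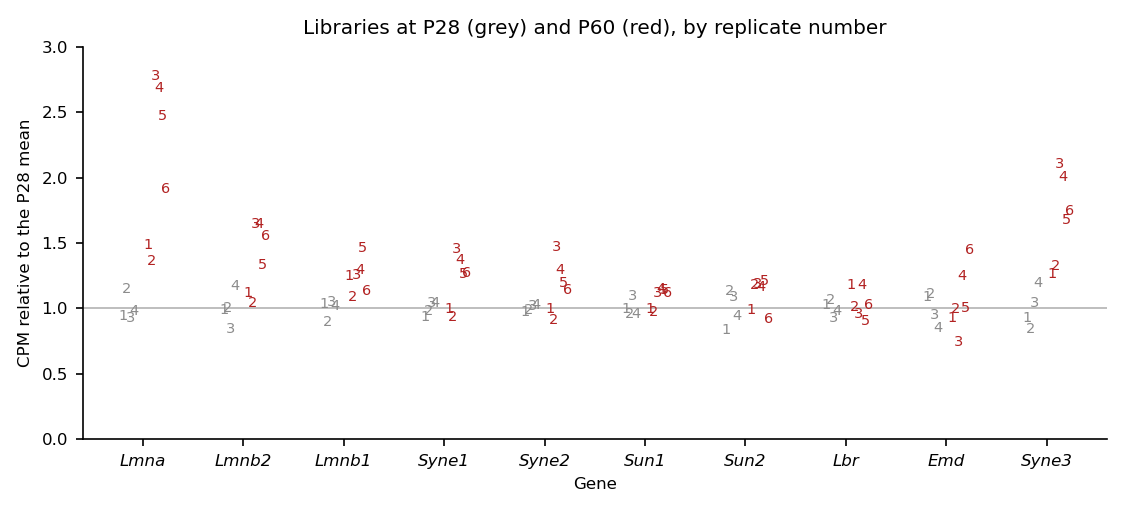
CPM of each P28 (grey) and P60 (red) library relative to the P28 mean of the gene (vertical axis, linear from 0), with digits giving the replicate number. P60 replicates 1 and 2 are the lowest P60 libraries for Lmna, Lmnb2, Syne1, Syne2, Sun1 and Syne3, and every P60 library of Lmna lies above every P28 library.

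Rod nuclei invert between the first postnatal week and adulthood, and P60 was therefore also compared with P6. The median of all features was -0.14 at this comparison in CPM as deposited and -0.02 after median-of-ratios scaling, so small differences depend on the scaling. Syne1 rose by 2.30 (SE 0.10), Lmna by 0.84 (SE 0.18), Syne2 by 0.50 (SE 0.09) and Lmnb2 by 0.41 (SE 0.14), with 18.6% of features called higher. Sun1 changed by -0.59 (SE 0.09), Lmnb1 by -0.57 (SE 0.09) and Lbr by -0.29 (SE 0.10, adjusted p = 0.016), with 30.8% of features called lower. The Lbr value was -0.14 (adjusted p = 0.26) after median-of-ratios scaling. The Lmnb2 libraries of the 2 ages overlapped, and its call held in 33 of 36 alternatives (adjusted p up to 0.14). Emd, at -0.11 (SE 0.19), and Sun2, at -0.15 (SE 0.12), did not pass, and their sign depended on the alternative.

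Of 16 other nuclear envelope genes, 6 were higher and 7 lower in mature than in embryonic retina and 3 did not pass. Over all features 35.0% were called higher and 40.4% lower. The median log2 difference of the list was -0.08, against -0.06 over all features. Tmpo, which encodes the LAP2 proteins that bind lamins and BAF, went from 613 to 116 CPM (-2.40, SE 0.05, adjusted p = 1.2e-28). Banf1, the gene of BAF itself, went from 19.4 to 3.44 CPM (-2.22, SE 0.15) and Tmem43, an inner membrane protein, from 17.4 to 7.45 CPM (-1.14, SE 0.10). The 3 largest rises were those of Syne3 (5.66, SE 0.13), Icmt (3.43, SE 0.05) and Syne4 (0.61, SE 0.16).

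Icmt, the methyltransferase that acts on the prenylated tail of B-type lamins and other proteins, had 20.7 to 22.4 CPM at E14, 142 to 165 at P6 and 252 to 325 at P60. It rose by 2.08 (SE 0.08, adjusted p = 3.4e-20) from P1 to P6, the step at which Tmpo fell by 2.0 on the log2 scale (SE 0.08). At that step 1 of the 16 genes was higher and 7 lower, against 18.0% and 20.4% of all features. From P28 to P60 2 were higher (Syne3 and Tmem201) and none lower, against 4.80% and 8.11% of all features.

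Of 13 heterochromatin genes reported here, 12 were lower in mature than in embryonic retina and 1 (Daxx) did not pass, with a median of -1.02. Over all features 40.4% were called lower and the median was -0.06. H1f0, a linker histone gene, changed most, from 277 to 29.2 CPM (-3.22, SE 0.09, adjusted p = 3.6e-25). Cbx5, the gene of an HP1 protein known to bind Lbr, went from 715 to 163 CPM (-2.13, SE 0.05) and Trim28, a corepressor, from 246 to 60.1 CPM (-2.01, SE 0.07). From P1 to P6 8 of the 13 were lower and 1 (Suv39h2) higher, against 20.4% of all features lower and 18.0% higher. From P6 to P15 12 were lower, against 19.0% of all features.

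**Figure D5:**
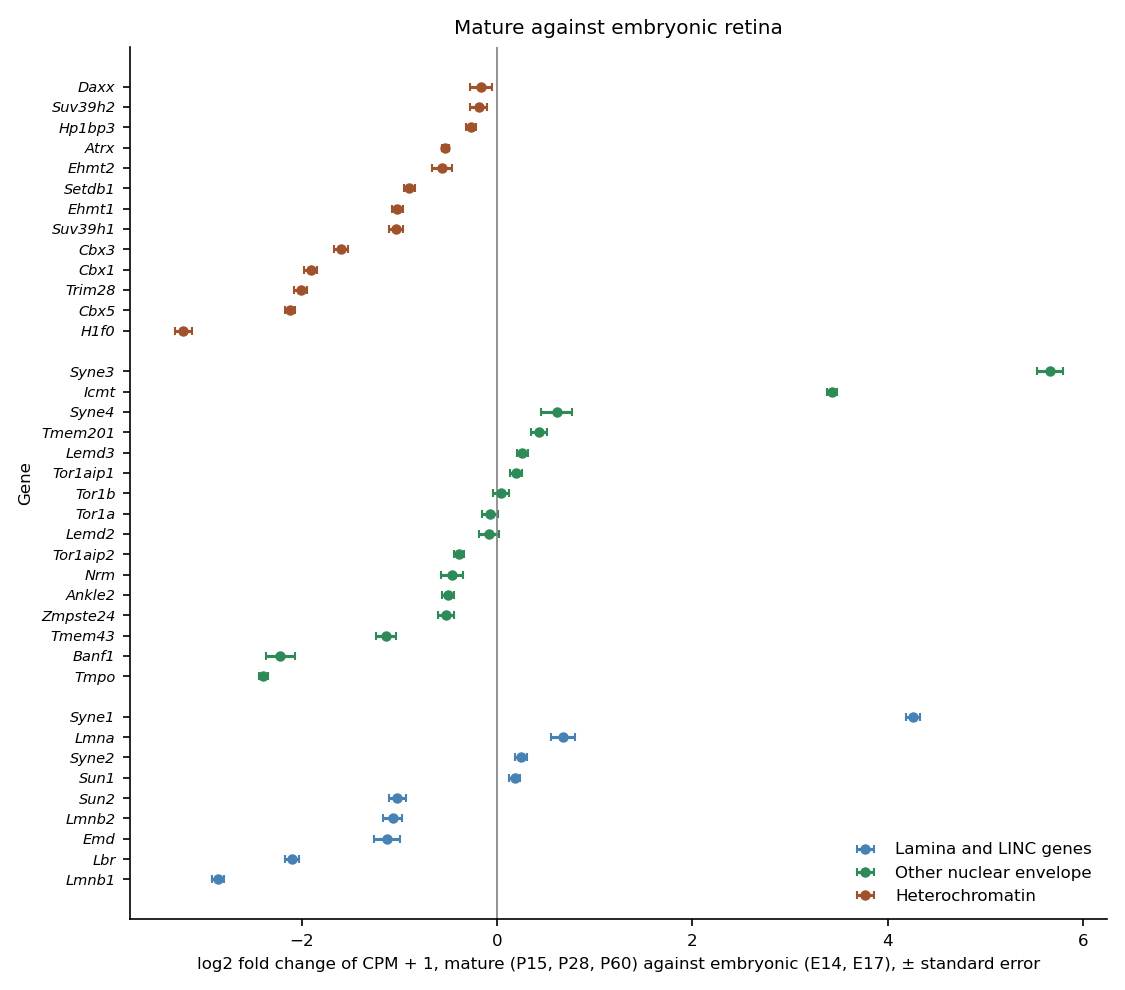
Log2 fold change of CPM + 1 in mature against embryonic retina (horizontal axis, bars ± SE from limma) for the 9 lamina and LINC genes, 16 other nuclear envelope genes and 13 heterochromatin genes, sorted within each list. Values run from -2.86 (Lmnb1) to 4.26 (Syne1) among the members, and the heterochromatin genes shown lie below 0.

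Across the 7 age means of log2(CPM + 1), the 5 genes that fell had Pearson's r of 0.93 to 0.999 with one another, and Syne1 had r of -0.84 to -0.96 with them. Sun1 had r of 0.23 with Syne1 and 0.28 with Lmna. These values describe 7 points from the same libraries and carry no test. The 5 genes were grouped by their fall in these libraries, so the signs of r among them and with Syne1 follow from that choice. Among features with a Gene ID and a mean of at least 10 CPM, those most like Lbr were Racgap1, Cdca3 and Ect2 (r = 0.999 each). The closest to Lmnb1 were Hist1h1b, Hist2h2aa2 and 6430706D22Rik (r = 0.999 each), and to Emd Lbr, Hnrnpul1 and Pmf1 (r of 0.998 to 0.999). For Lmnb2 they were Stk38, Aaas and Ccnk (0.995 to 0.998) and for Sun2 Mogs, Stag1 and Cep57 (0.991 to 0.992).

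Of the genes that rose, Syne1 was like 1700029J07Rik and Stac2 (r = 0.998 each) and Syne2 like Tspyl1, Wdfy3 and Herpud1 (0.988 to 0.991). The values nearest to Lmna were Aup1, Tyk2 and Gpr107 (0.973 to 0.984), and to Sun1 Rnf19a, Fam114a2 and Sat1 (0.978 to 0.984).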

How the data were processed

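The authors prepared total RNA from retinas (TRIzol, RNeasy), built libraries with a SMARTer total RNA kit, sequenced single-end reads and aligned them to GRCm38/mm10 with STAR. The labels and the study's methods differ on how many retinas made up a library. The deposited table holds CPM values, the reads of each feature scaled to the library total. Its annotation and use of strand are not given in the sources used here.

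Members were matched by symbol. The members and gene lists were chosen with earlier results of these data known. CPM values were analyzed as log2(CPM + 1), which understates changes of low genes, for the 31760 features that reached 1 CPM in 3 or more of the 27 libraries. Limma (3.58.1, R 4.3.3) was fitted with a mean-variance trend and age as the factor, with two-sided tests and Benjamini-Hochberg adjustment over all features. Nothing says that replicates are independent litters, so p-values measure the spread between these libraries. Of values up to 1000 reads, 100% lay within 0.1 of a whole read, and edgeR (4.0.16) was run on the recovered reads. In E14 replicate 1 the value of 1 read lies near a round decimal, so its recovery could not be judged in this way, and edgeR was also run without it. Depth limits cover counting error only. Exon lengths came from GENCODE on GRCm38. Python 3.11.15 with numpy 2.4.6 gave the permutation tests. Named genes are the members, the 3 largest rises and falls of each list among genes called, and the 3 features most like each member. Some genes are not reported here, and 1 rod marker and 1 heterochromatin gene were for that reason left out of their lists' counts and sums. Dnah14, Tmem201, Cdk1, Daxx and Suv39h2 were added after their values were seen. Alternatives were a pseudocount of 0.1, no filter, median-of-ratios scaling, a minimum mean of 10 CPM, a replicate block, edgeR, the compared ages alone, summed entries and each library left out. EdgeR without E14 replicate 1 and mature retina without P60 were added after seeing the data.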

Additional observations from a re-analysis of the deposited data

How the results depend on the processing

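The comparisons of mature with embryonic retina kept all 9 calls and their directions under every alternative except the minimum mean of 10 CPM, which left Lmna and Emd out and gave 7 of 7, and the 4 within-library ratios kept theirs, from 2.52 to 3.03 for Lmna to Lbr, -1.85 to -1.73 for Lmnb1 to Lmnb2, -4.17 to -3.90 for Syne2 to Syne1 and -1.30 to -1.10 for Sun2 to Sun1. The number of members called from P28 to P60 was 4, and it was 1 with the replicate block and 0 in a fit of the compared ages only. That fit has fewer libraries and its own estimate of the spread. Leaving out 1 library gave 1 to 5, with 1 (Lmna) without P28 replicate 2 and 2 (Lmna and Lmnb1) without P28 replicate 1 or 3 or P60 replicate 3, 4 or 6. The number from P15 to P28 was 0, and it was 1 (Syne1) in a fit of the compared ages only. Leaving out 1 library there gave 0 to 1, with 1 without P60 replicate 1, 2 or 3. Of 2898 alternative values for single genes, 2842 kept their side of the threshold and 56 did not, and 26 values that were not called changed sign. Lbr at P60 against P6 also lost its call under the replicate block, in edgeR, in a fit of the compared ages and without P6 replicate 1, and Lmnb2 under the block, in the compared ages and without P6 replicate 3. The causes were not tested.

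The replicate numbers did not pair the libraries. The correlation of deviations from the age mean had a median of -0.002 over 69 pairs with the same number, and 3 pairs exceeded 0.1. Over 240 pairs with other numbers the median was 0.004, and 8 pairs exceeded 0.1. Emd and Lmna rest on the fewest reads and had the largest standard errors of the members in mature against embryonic retina, 0.13 and 0.12. These errors include the spread between libraries, and the part of depth in them was not separated. Small changes of these genes could be missed.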
